A study of Homo sapiens with 30 samples.

Results

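SPIB, SPI1, IRF4 and IRF8 were followed through an expression study of 2 human lymphoma cell lines exposed to the small molecule YK-4-279. SPIB, SPI1, IRF4 and IRF8 encode the ETS-family factors Spi-B and PU.1 and the interferon regulatory factors that pair with them. Members were all probes that the array's annotation ties to these 4 gene symbols, which gave 5 of the 47231 probes on the array. SPIB (ILMN_2143314), IRF4 (ILMN_1754507) and IRF8 (ILMN_1666594) had 1 probe each, and SPI1 had 2 (ILMN_1696463 and ILMN_2392043), annotated to different transcript records. In the GRCh38.p14 RefSeq annotation SPIB lies at chr19:50418938-50431314, SPI1 at chr11:47354860-47378547, IRF4 at chr6:391752-411443 and IRF8 at chr16:85899162-85922609.

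TMD8 and U2932 are established lines of diffuse large B-cell lymphoma of the activated B-cell-like type, and U2932 is known to hold genetically distinct subclones. TMD8 was exposed to YK-S, the S enantiomer, or to YK-R, the R enantiomer, for 4 h or 8 h, in 4 groups. U2932 was exposed to YK-S, to YK-R or to DMSO, the vehicle, for 4 h or 8 h, in 6 groups. Each of the 10 groups had 3 arrays, 30 in all. TMD8 had no DMSO group, so its enantiomer arms could be set only against each other. The labels give no dose. They do not say that arrays of a group hold separate cultures, and p-values then measure only the spread between arrays, which may be technical. The study asked which genes YK-4-279 modulates, and its title names interference with SPIB.

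Spi-B and PU.1 bind a purine-rich core, GGAA, and are close relatives with overlapping targets in B cells. IRF4 and IRF8 bind DNA weakly alone and are recruited by PU.1 or Spi-B to composite elements that join an ETS core to an IRF half-site. IRF8 is known for roles in germinal centre B cells and myeloid cells, and IRF4 for driving plasma cell differentiation. IRF4 and SPIB are also known as survival factors of activated B-cell-like lymphoma, where lenalidomide acts through cereblon to lower IRF4. YK-4-279 was developed as an inhibitor of the ETS fusion protein EWS-FLI1, and its S form is known as the active enantiomer in that setting.

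The windows that RefSeq's promoter table gives for these genes are shown because the same factors read such sequence. The table, of build GRCh38.p14, matched 3 of the 4 symbols; SPI1 is named only. Each window runs from 250 bases before a listed start to 50 after it on the plus strand, and capitals mark the ETS core GGAA or its complement TTCC. The SPIB window at chr19:50418688-50418987, the IRF4 window at chr6:391502-391801 and the first of the IRF8 windows at chr16:85902580-85902879 read as follows.
SPIB: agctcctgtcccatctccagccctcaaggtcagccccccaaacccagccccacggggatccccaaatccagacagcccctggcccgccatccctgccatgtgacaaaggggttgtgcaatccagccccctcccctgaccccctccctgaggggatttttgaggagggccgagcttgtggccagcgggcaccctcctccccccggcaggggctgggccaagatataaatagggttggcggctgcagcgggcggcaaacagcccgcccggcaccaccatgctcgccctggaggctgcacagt
IRF4: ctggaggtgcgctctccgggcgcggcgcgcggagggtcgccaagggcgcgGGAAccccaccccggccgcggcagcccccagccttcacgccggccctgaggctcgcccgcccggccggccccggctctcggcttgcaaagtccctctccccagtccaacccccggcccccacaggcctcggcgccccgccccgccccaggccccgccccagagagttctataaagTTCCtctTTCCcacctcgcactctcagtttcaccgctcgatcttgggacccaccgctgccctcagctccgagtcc
IRF8: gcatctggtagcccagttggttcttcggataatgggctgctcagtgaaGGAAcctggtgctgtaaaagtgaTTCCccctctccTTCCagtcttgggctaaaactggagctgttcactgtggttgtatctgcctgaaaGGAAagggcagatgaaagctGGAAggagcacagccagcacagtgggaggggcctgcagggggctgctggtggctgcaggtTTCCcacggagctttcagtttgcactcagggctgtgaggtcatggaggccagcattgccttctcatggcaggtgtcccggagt
The listed start of the IRF8 window lies 3668 bases past the annotated start of the gene. Counting both strands, the ETS core occurred 0 times in the SPIB window, 3 times in the IRF4 window and 6 times in the IRF8 window. The IRF half-site GAAA occurred 0 times in the SPIB window, 2 times in the IRF4 window and 5 times in the IRF8 window. The composite GGAANNGAAA and the interferon response form GAAANNGAAA, both of which contain the half-site, were in none of the 3 windows. Of 35116 promoter windows in the table, 95.5% held GGAA, 86.3% held GAAA, 2.82% held GGAANNGAAA and 3.57% held GAAANNGAAA. No match says only that those letters are not in the window.

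The TMD8 arrays were alike in brightness, with mean signals of 419.6 to 494.1 and 46.6% to 56.1% of probes above background. U2932 arrays ranged from 85.4 to 340.9 in mean signal and from 24.7% to 50.9% in probes above background. The 8 arrays with a mean signal under 200 were all U2932, and with the signal table's names 7 belonged to the 4 h groups, every DMSO and YK-R array and 1 under YK-S, and the last to YK-S at 8 h. The study deposited a table of signals and a table of log2 values, and their sample names were the same for 12 of 12 TMD8 arrays and 0 of 18 U2932 arrays. Of the U2932 arrays, 13 carried the name of another group in the value table and 5 that of another array of the same group. Each U2932 array had a partner in the other table with a rank correlation of at least 0.999996. Results for U2932 are therefore given with the signal table's names and with the value table's names, and which of them is right was not settled. As for the labelled cell type, the B cell markers CD79A, CD79B, MS4A1 and CD22 were above background on every array of both lines, and PAX5 was above it on 8 of 12 TMD8 arrays and 0 of 18 U2932 arrays. The summed level of 5 T cell markers was 107 to 120 in TMD8 and 102 to 162 in U2932, that of 5 myeloid markers 117 to 143 in TMD8 and 109 to 225 in U2932, and that of 5 B cell markers 4150 to 6756 in TMD8 and 7482 to 13042 in U2932. In bulk RNA, fewer cells expressing a gene and less RNA per cell cannot be told apart.

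SPIB was far higher in TMD8 than in U2932, and IRF8 was lower in TMD8 by an amount that depended on the scaling. On the log2 scale of all 30 arrays normalized together, the SPIB probe had a lowest, median and highest level of 10.75, 11.03 and 11.44 over the 12 TMD8 arrays, against 7.36, 8.05 and 9.90 over the 18 U2932 arrays. The ranges were apart, so that every TMD8 array lay above every U2932 array. The difference, TMD8 minus U2932, was 2.93 (95% interval 2.63 to 3.24), or 7.64-fold, with a limma adjusted p of 2.3e-15. It was 2.67 to 4.41 under the other scalings. Plasmacytoid dendritic cells also express SPIB, and 4 of their 5 listed markers were above background on all 12 TMD8 arrays, against 1 of 5 on all 18 U2932 arrays, with summed levels of 699 to 956 in TMD8 and 1027 to 2993 in U2932. CLEC4C, the most specific of them, was near background at 4.83 to 5.80 in TMD8 and below it at 4.17 to 4.69 on all U2932 arrays. TCF4, by far the brightest of the 5 and so the main part of the sums, ran the other way, at 9.16 to 9.65 in TMD8 against 9.85 to 11.40 in U2932. NRP1 was above background on 8 of 12 TMD8 and 14 of 18 U2932 arrays, LILRA4 on 12 of 12 and 8 of 18, and IL3RA on 12 of 12 and 7 of 18. The part of these markers in the SPIB difference was not tested. The IRF8 probe ran the other way, with 8.07, 8.86 and 9.41 in TMD8, against 10.32, 10.73 and 11.01 in U2932. All 12 TMD8 arrays lay below all 18 U2932 arrays, and the difference was -1.89 (-2.06 to -1.73), with a limma adjusted p of 4.3e-17. Its size and its call rest on the scaling. Under median scaling, which moved the median over all probes by 0.68, it was -0.37 with a limma adjusted p of 0.18. In the value table it was -0.49. It was still called there, but so were 23845 of the 25404 probes tested. Each line had been normalized on its own in that table, so a shift of scale between the lines is part of its line differences. Every line difference below is on the scale of the 30 arrays unless another is named. A difference over all groups sets the mean of the 4 TMD8 groups against that of all 6 U2932 groups, DMSO included, which has no TMD8 counterpart.

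IRF4 was also higher in TMD8, with a lowest, median and highest level of 9.27, 9.93 and 10.90, against 8.02, 9.02 and 10.06 in U2932. The ranges overlapped, and the difference was 0.96 (0.68 to 1.24), with a limma adjusted p of 9.6e-07. The probes of SPI1, which encodes PU.1, lay near background in U2932. ILMN_1696463 was above background on 12 of 12 TMD8 arrays and 15 of 18 U2932 arrays, with levels of 5.90 to 6.79 in TMD8 and 4.44 to 6.74 in U2932. ILMN_2392043 was above background on 12 of 12 TMD8 arrays and 13 of 18 U2932 arrays, with levels of 5.14 to 6.64 in TMD8 and 4.21 to 7.16 in U2932. The differences between lines were 0.38 (0.03 to 0.72; limma adjusted p = 0.055) for the first SPI1 probe and 0.81 (0.36 to 1.27; limma adjusted p = 0.0024) for the second. In all, 4 of the 5 probes were called at an adjusted p under 0.05, where 57.8% of all probes tested were called, so the count itself is near the background.

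**Figure D1:**
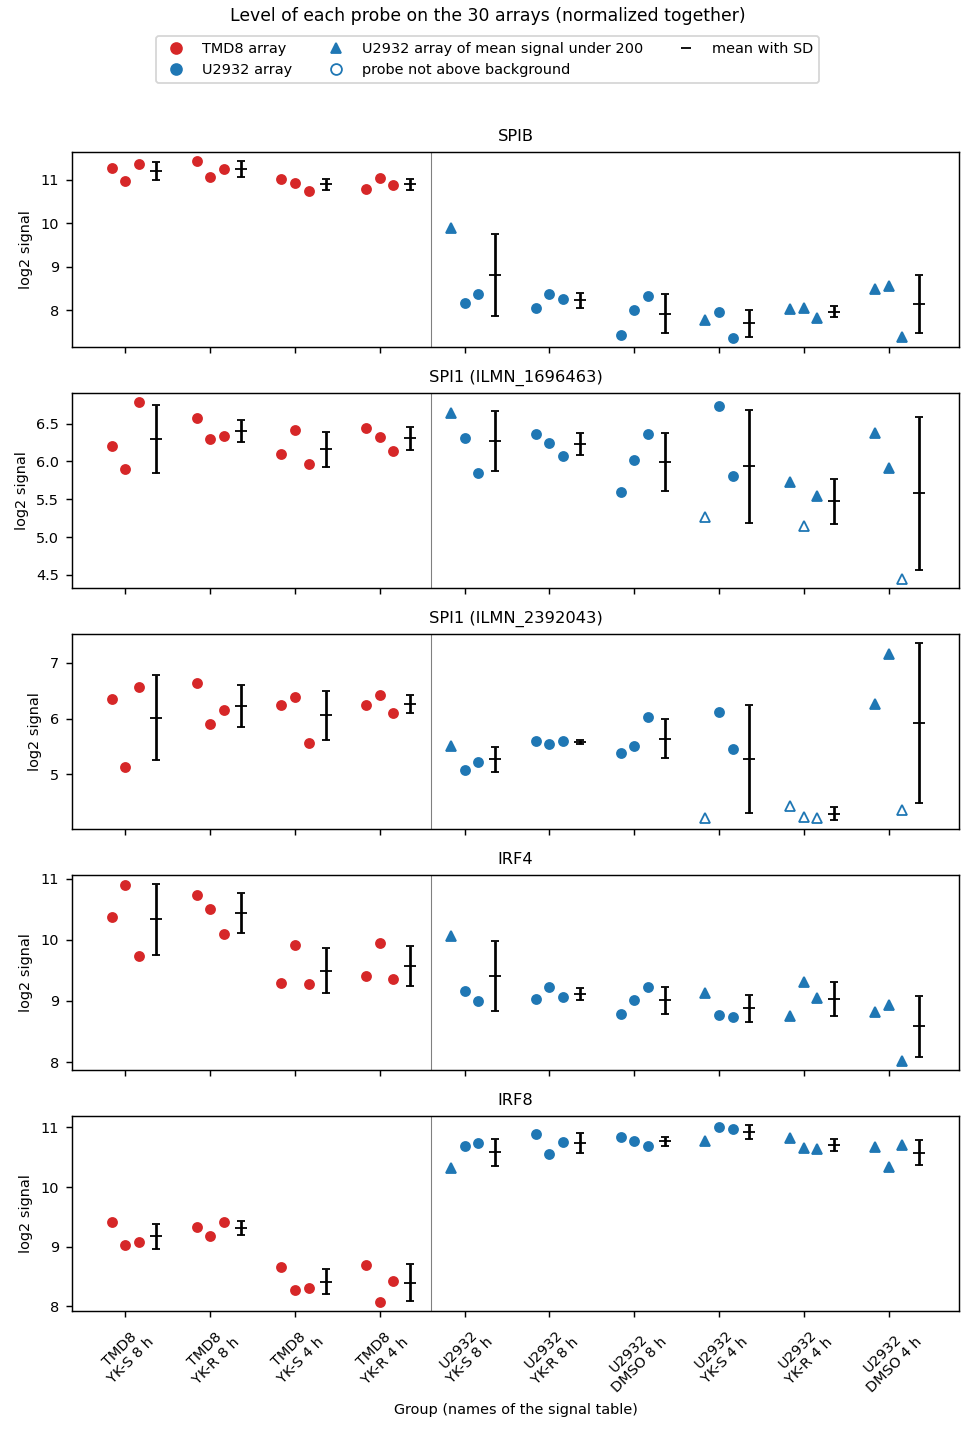
Level of each of the 5 probes on every array (y axis, log2 of the normalized signal, all 30 arrays normalized together), by group with the signal table's names. Points are single arrays (triangles for U2932 arrays of mean signal under 200, open where the probe was not above background) and bars are the mean and SD of 3; the SPIB points of TMD8 sit between 10.75 and 11.44, all above the U2932 points, and the IRF8 points of TMD8 sit between 8.07 and 9.41, all below them.

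Within each line the groups of 1 probe mostly overlapped. For SPIB the order of group means on this scale was TMD8 YK-R at 8 h (11.25 ± 0.19, SD, n = 3), YK-S at 8 h (11.21 ± 0.21), YK-R at 4 h (10.90 ± 0.13) and YK-S at 4 h (10.90 ± 0.13). U2932 followed with YK-S at 8 h (8.81 ± 0.95), YK-R at 8 h (8.23 ± 0.17), DMSO at 4 h (8.15 ± 0.66), YK-R at 4 h (7.97 ± 0.13), DMSO at 8 h (7.92 ± 0.45) and YK-S at 4 h (7.70 ± 0.31). Neighbours in that order overlapped everywhere but at the step between the lines. The wide SD of the U2932 YK-S group at 8 h came from 1 dim array, which read 9.90 for SPIB, while the other 17 U2932 arrays lay between 7.36 and 8.56. That array also had the highest IRF4 level of the line, 10.06 against 8.02 to 9.30 in the others, and the lowest IRF8 level, 10.32 against 10.34 to 11.01. Both tables name it a YK-S array at 8 h.

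For IRF4 the order was TMD8 YK-R at 8 h (10.45 ± 0.32), YK-S at 8 h (10.34 ± 0.58), YK-R at 4 h (9.57 ± 0.33) and YK-S at 4 h (9.49 ± 0.37), and then U2932 YK-S at 8 h (9.41 ± 0.57), YK-R at 8 h (9.11 ± 0.10), YK-R at 4 h (9.03 ± 0.27), DMSO at 8 h (9.01 ± 0.23), YK-S at 4 h (8.88 ± 0.22) and DMSO at 4 h (8.59 ± 0.50). Neighbours in that order all overlapped. For IRF8 the U2932 groups led, with YK-S at 4 h (10.92 ± 0.13), DMSO at 8 h (10.76 ± 0.08), YK-R at 8 h (10.73 ± 0.17), YK-R at 4 h (10.70 ± 0.10), YK-S at 8 h (10.58 ± 0.23) and DMSO at 4 h (10.58 ± 0.21). TMD8 followed with YK-R at 8 h (9.31 ± 0.11), YK-S at 8 h (9.17 ± 0.21), YK-S at 4 h (8.41 ± 0.21) and YK-R at 4 h (8.40 ± 0.31). The 8 h groups and the 4 h groups of TMD8 were apart for IRF8, as were the lines, and other neighbours overlapped.

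The gap between lines was also taken at each matched treatment and time, where 29.7% of all probes tested were called under YK-S at 4 h, 34.5% under YK-R at 4 h, 24.7% under YK-S at 8 h and 27.7% under YK-R at 8 h. Of the 5 probes, 2 were called under YK-S at 4 h and 3 in each of the other conditions. SPIB was higher in TMD8 by 3.19 under YK-S at 4 h, 2.93 under YK-R at 4 h, 2.40 under YK-S at 8 h and 3.02 under YK-R at 8 h. IRF8 differed by -2.51 under YK-S at 4 h, -2.30 under YK-R at 4 h, -1.41 under YK-S at 8 h and -1.43 under YK-R at 8 h. The sign of the IRF8 gap under YK-R was not settled, since with median scaling the 4 h difference was 0.41. The change of the IRF8 gap with time was tested directly and is given with the comparison of times. In the value table, with its own names, the IRF8 differences taken at 8 h were -0.07 under YK-S and 0.04 under YK-R, neither of them called. IRF4 was higher in TMD8 by 0.62 under YK-S and 0.54 under YK-R at 4 h, neither of them called. At 8 h it was higher by 0.93 under YK-S and 1.33 under YK-R, both called, though the YK-S call was lost under 4 of 13 alternatives. Under YK-R at 4 h the SPI1 probe ILMN_2392043 was above background on all 3 TMD8 arrays and on none of the 3 U2932 arrays, and was at least 1.78-fold higher in TMD8 on the scale of the 30 arrays. Under the alternatives its smallest log2 difference was 0.47.

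**Figure D2:**
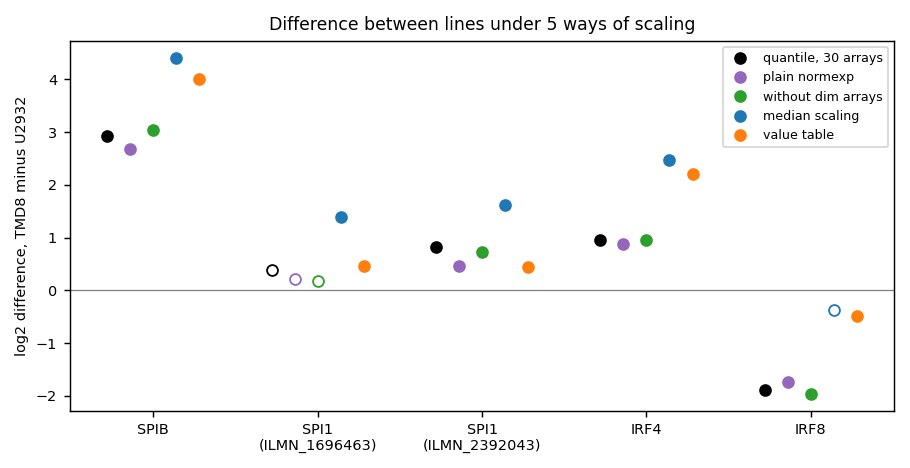
Difference between the lines over all groups, TMD8 minus U2932 (y axis, log2), for each of the 5 probes (x axis) under 5 ways of scaling, named in the legend. Points are limma estimates, filled where the adjusted p was under 0.05; SPIB is above 0 under all 5, from 2.67 to 4.41, and IRF8 is below 0 under all 5, at -1.89 with quantile normalization, -0.37 with median scaling and -0.49 in the value table.

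YK-S was set against YK-R in TMD8 first, where both tables carry the same names. On the scale of the TMD8 arrays normalized on their own, SPIB read 12.36, 12.05 and 12.45 under YK-S at 8 h, against 12.51, 12.14 and 12.34 under YK-R at 8 h. At 4 h it read 12.10, 12.001 and 11.84 under YK-S, against 11.87, 12.12 and 11.96 under YK-R. The enantiomers overlapped at both times. The differences, YK-S minus YK-R, were -0.04 (95% interval -0.37 to 0.29) at 8 h and -0.00 (-0.33 to 0.33) at 4 h. An effect of either sign inside those bounds could not be seen with 3 arrays a group.

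IRF4, IRF8 and SPI1 gave the same picture. IRF4 had differences of -0.10 (-0.71 to 0.51) at 8 h and -0.07 (-0.68 to 0.54) at 4 h. IRF8 had -0.13 (-0.52 to 0.26) at 8 h and 0.02 (-0.37 to 0.41) at 4 h. The SPI1 probes had wider intervals, with -0.14 (-0.68 to 0.40) at 8 h and -0.19 (-0.73 to 0.35) at 4 h for ILMN_1696463, and -0.31 (-1.29 to 0.66) at 8 h and -0.27 (-1.24 to 0.70) at 4 h for ILMN_2392043. In limma 0 of 5 probes were called at either time, and 0 of 5 had an unadjusted p under 0.05, where 0.0464% of all probes tested were called at 8 h and 0% at 4 h. Of all probes 6.84% had an unadjusted p under 0.05 at 8 h and 2.10% at 4 h. Averaged over both times, a comparison added after the values were seen, 0.059% of probes were called and none of the 5, with SPIB at -0.02 (-0.26 to 0.21), IRF4 at -0.09 (-0.52 to 0.34) and IRF8 at -0.06 (-0.33 to 0.22). The value table gave 0.0548% called at 8 h, 0% at 4 h and 0.059% over both times, again with none of the 5. The interaction of enantiomer and time had 0% called in both tables. These p-values do not show that the enantiomers acted alike.

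In U2932 each enantiomer could be set against DMSO. With the signal table's names and on the scale of the U2932 arrays normalized on their own, SPIB read 9.14, 7.37 and 7.58 under YK-S at 8 h, 7.25, 7.59 and 7.47 under YK-R at 8 h, and 6.66, 7.22 and 7.53 under DMSO at 8 h. At 4 h it read 7.003, 7.17 and 6.59 under YK-S, 7.24, 7.26 and 7.03 under YK-R, and 7.70, 7.77 and 6.62 under DMSO. The groups overlapped at both times, apart from the single dim YK-S array at 8 h. SPIB differed by 0.90 (0.10 to 1.69; limma adjusted p = 1) for YK-S minus DMSO at 8 h. That value was 0.34 without the single array and 0.38 without all dim arrays. At 4 h YK-S minus DMSO was -0.44 (-1.23 to 0.35). YK-R minus DMSO was 0.30 (-0.49 to 1.09) at 8 h and -0.18 at 4 h. YK-S minus YK-R at 8 h was 0.59 (-0.20 to 1.39), and at 4 h it was -0.26 (-1.05 to 0.54). Without the single dim array the 8 h value was 0.04. With 1 array left out at a time, YK-S minus DMSO at 4 h ran between -0.82 and -0.24, YK-R minus DMSO between 0.06 and 0.49 at 8 h and between -0.56 and 0.02 at 4 h, and YK-S minus YK-R at 4 h between -0.38 and -0.09. SPIB was called in none of the 6 comparisons in the main fit. With array weights it was called for YK-S minus DMSO and YK-R minus DMSO at 4 h. Over all alternatives YK-S minus DMSO at 4 h ran from -1.04 to 0.80, so its direction was not settled.

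IRF8 under YK-S at 4 h read 10.05, 10.29 and 10.26, against 9.95, 9.60 and 9.98 under DMSO at 4 h. The 3 YK-S arrays were above the 3 DMSO arrays, 2 of the YK-S arrays were bright and all of the DMSO arrays dim, and the difference was 0.36 (-0.02 to 0.73; limma adjusted p = 0.28). The part of brightness in that difference was not tested, and with the value table's names it was -0.08. IRF4 differed by 0.42 for YK-S minus DMSO at 8 h and 0.29 at 4 h, and neither passed the test. The 8 h value was 0.08 without the single dim YK-S array, and the 4 h value 0.0041 without DMSO at 4 h array 3. The SPI1 probe ILMN_2392043 read 4.32, 4.19 and 4.17 under YK-R at 4 h, all below background, against 5.61, 6.41 and 4.27 under DMSO at 4 h, with 2 of the 3 above it. The fitted difference was -1.20 (-1.999 to -0.41; limma adjusted p = 0.081) and was not called. No smallest fold can be given, since DMSO at 4 h array 3 was itself below background. The other SPI1 probe, ILMN_1696463, was above background on 2 of the 3 YK-R arrays and differed by -0.12 (-0.78 to 0.55). In the value table ILMN_2392043 gave 0.05 (-0.41 to 0.50), so the sign rests on which names are used.

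Over the 6 treatment comparisons in U2932, 0 of 5 probes were called in limma with either table's names. All probes tested were called at 2.04% for YK-R minus DMSO at 4 h with the signal table's names and at 1.86% with the value table's, and at 0% in the other 5. An unadjusted p under 0.05 was met by 1 of 5 probes for YK-S minus DMSO at 8 h (SPIB) and by 1 of 5 for YK-R minus DMSO at 4 h (SPI1) with the signal table's names. Of all probes tested 2.17% and 26.5% met it there. With the value table's names it was met by 1 probe of SPI1 for YK-S minus DMSO at 4 h (9.92% of all probes) and by IRF4 for YK-S minus YK-R at 8 h (2.48% of all probes), where the IRF4 difference was 0.57 (0.04 to 1.10). In that table SPIB differed by 0.48 (-0.23 to 1.20) for YK-S minus DMSO at 8 h, -0.32 (-1.04 to 0.39) at 4 h, and 0.66 (-0.05 to 1.38) for YK-S minus YK-R at 8 h. The YK-S values at 8 h include the same dim array. YK-S minus YK-R over both times and the interaction of enantiomer and time had 0% called in both tables. The difference between lines in YK-S minus YK-R was called for 0% of probes at each time in the signal table. In the value table it was called for 2 of 25404 probes at 4 h and 11 at 8 h, with 0 of the 5 members among them.

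**Figure D3:**
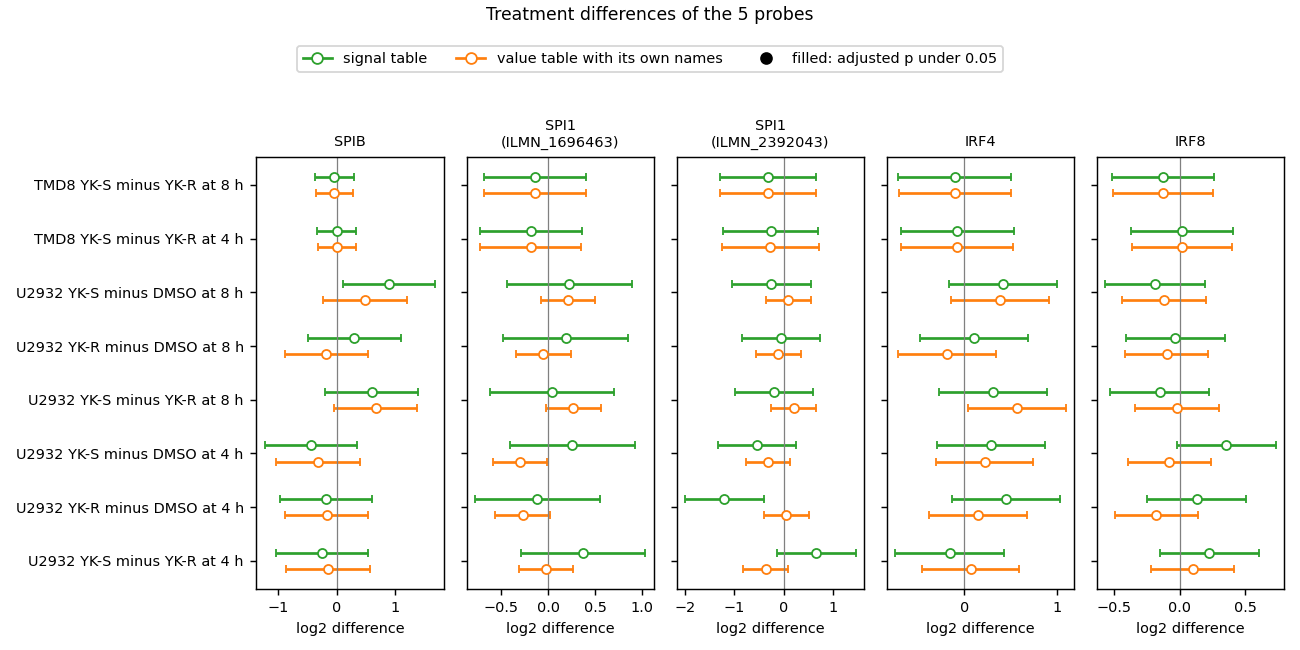
Treatment differences of the 5 probes (x axis, log2; YK-S minus YK-R in TMD8, and YK-S minus DMSO, YK-R minus DMSO and YK-S minus YK-R in U2932, at 8 h and 4 h) in the signal table and the value table. Points are limma estimates with 95% intervals; all points are open, since 0 of 5 probes passed an adjusted p under 0.05 in any of these comparisons, and the intervals of SPIB are narrower in TMD8 (-0.37 to 0.29 at 8 h) than in U2932 (-0.20 to 1.39 for the same contrast).

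IRF8 was higher at 8 h than at 4 h in TMD8. On the scale of the TMD8 arrays, IRF8 read 10.57, 10.20 and 10.25 under YK-S at 8 h, against 9.84, 9.47 and 9.50 under YK-S at 4 h. Under YK-R it read 10.49, 10.35 and 10.56 at 8 h, against 9.88, 9.26 and 9.62 at 4 h. All 6 arrays at 8 h lay above all 6 at 4 h. Over both enantiomers, a comparison added after the values were seen, IRF8 rose by 0.81 (0.53 to 1.08), a 1.75-fold difference, with a limma adjusted p of 0.018. Without 1 of 5 single arrays in turn (YK-S at 8 h array 1, YK-R at 8 h array 1, YK-S at 4 h arrays 2 and 3, YK-R at 4 h array 3) the adjusted p was 0.053 to 0.060 and the difference 0.75 to 0.81. Within each enantiomer the differences were 0.73 (0.34 to 1.12; limma adjusted p = 0.43) under YK-S and 0.88 (0.49 to 1.27; limma adjusted p = 0.13) under YK-R. With no DMSO group in TMD8, the exposure and the time in culture cannot be told apart.

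IRF4 and SPIB pointed the same way in TMD8 without passing the test. IRF4 read 11.50, 11.98 and 10.88 under YK-S at 8 h, against 10.45, 11.05 and 10.44 under YK-S at 4 h. Under YK-R it read 11.82, 11.62 and 11.22 at 8 h, against 10.56, 11.08 and 10.52 at 4 h. The arrays overlapped under YK-S and were apart under YK-R, and the difference over both was 0.82 (0.39 to 1.25; limma adjusted p = 0.13). SPIB differed by 0.33 (0.09 to 0.56; limma adjusted p = 0.29) over both, with 0.31 (-0.02 to 0.64) under YK-S and 0.35 (0.02 to 0.68) under YK-R. The SPI1 probes were at 0.14 and -0.07 over both. In all, 1 of 5 probes was called over both enantiomers, where 0.426% of all probes tested were, and 0 of 5 within YK-S (0.0337% called) or YK-R (0.0801% called). An unadjusted p under 0.05 was met by 3, 2 and 3 of the 5, and by 10.7%, 5.45% and 9.98% of all probes tested. The value table called 0.506% over both enantiomers, IRF8 again among them, 0.0422% within YK-S and 0.114% within YK-R.

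No probe of the 4 genes passed the same test in U2932. Over all 3 treatments IRF8 differed between 8 h and 4 h by -0.04 (-0.26 to 0.18), where 6.6% of all probes tested were called. SPIB under YK-S differed by 1.11 (0.32 to 1.90; limma adjusted p = 0.23), and 0.55 without the dim array at 8 h. Within each of the 3 treatments 0% of probes were called with the signal table's names. With the value table's names 3.73% were called under YK-S, 5.5% under YK-R, 1.1% under DMSO and 13.8% over all 3, and 0 of 5 members in each. The rise of IRF8 with time was set against U2932 directly in the fit of all 30 arrays. TMD8 minus U2932 in the 8 h minus 4 h difference was 1.10 (0.59 to 1.60; limma adjusted p = 0.23) under YK-S, where 0.00787% of all probes were called, and 0.88 (0.37 to 1.39; limma adjusted p = 0.19) under YK-R, where 0.00394% were. IRF8 passed under YK-R in the value table and with array weights (adjusted p = 0.045 and 0.029), and under YK-S with array weights (adjusted p = 0.00036). Under median scaling the YK-R value was -1.28, not called. The time comparisons of U2932 move with brightness, since 7 of its 8 dim arrays were at 4 h by the signal table's names, and the part of brightness was not tested.

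**Figure D4:**
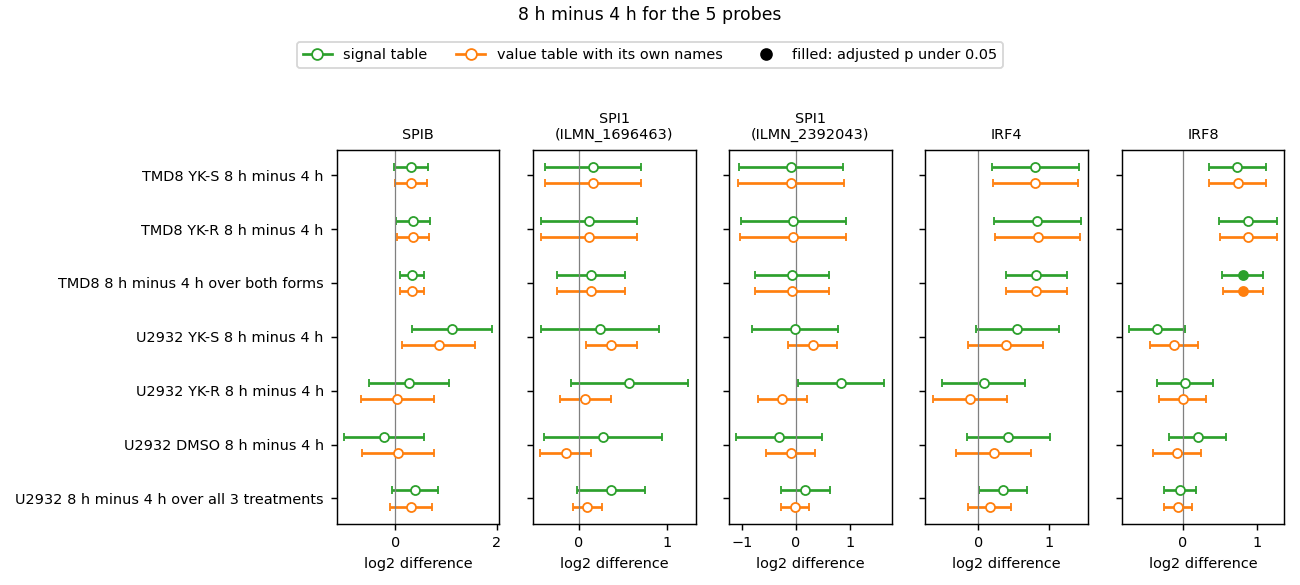
Differences between 8 h and 4 h (x axis, log2, 8 h minus 4 h) of the 5 probes within each treatment and over the treatments of a line, in the signal table and the value table with its own names. Points are limma estimates with 95% intervals and filled points passed an adjusted p under 0.05; only IRF8 in TMD8 over both forms is filled, at 0.81 in the signal table.

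Genes known to work with these factors were listed by role and followed in the same fits, with 1 probe for each gene. Between the lines, the background over the 13135 genes tested was 34.3% higher in TMD8 and 28.5% lower. Of 9 measured genes of the IRF4 and IRF8 network, 6 were higher in TMD8 and 1 was lower, with a median difference of 2.10, against 0.02 over all genes. Only 7 of those 9 were also kept in the U2932 fit. The rest passed the filter through TMD8 alone, where little but a higher call was possible, so the count and the median lean that way. BATF, which partners IRF4 on AP-1 composite elements, was higher by 2.90 (2.58 to 3.21), and PRDM1, the plasma cell regulator Blimp-1, by 2.67 (2.40 to 2.95). JUN, another AP-1 subunit, was higher by a fitted 2.66 (2.21 to 3.11), with only 4 of 18 U2932 arrays above background. BCL6, the germinal centre repressor, was lower in TMD8 by the difference of -1.74 (-1.95 to -1.53), with levels of 8.32 to 9.16, against 9.99 to 11.13 in U2932. BATF3 was above background on 0 of 18 U2932 arrays and at least 2.71-fold higher in TMD8 on this scale, while its log2 difference in the value table was 1.04. The sign of all 7 called genes was the same under median scaling and in the value table, though BCL6 shrank there to -0.19 and -0.34.

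Of 12 measured B cell genes that PU.1 or Spi-B are known to activate, 6 were higher in TMD8 and 3 lower, with a median of 0.45. FCGR2B, an inhibitory Fc receptor, was higher by 1.89 (1.64 to 2.15), SYK, a kinase of B cell receptor signalling, by 1.77 (1.58 to 1.96), CD72, a coreceptor, by 1.56 (1.22 to 1.91) and PTPRC, the phosphatase CD45, by 1.43 (1.05 to 1.80). CD72 was above background on 10 of 18 U2932 arrays and PTPRC on 14 of 18. The B cell receptor chains CD79A and CD79B, at -0.57 and -0.72, and MS4A1, which encodes CD20, at -0.42, were lower on this scale and turned positive under median scaling and in the value table. Other probes of CD79A and MS4A1 were also positive. The 3 lower calls therefore have no settled direction.

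Other family members were also called for the most part. Of 7 measured IRF and SPI genes 6 were higher in TMD8 and 1 lower, with a median of 0.94. Only 5 of the 7 were also kept in the U2932 fit, which limits this count and median in the same way. SPIC, the third SPI-family ETS factor, was higher by a fitted 3.62 with only 1 of 18 U2932 arrays above background, and its other probe gave 0.05. IRF9, a factor of the type I interferon response, was higher by 2.28 (2.03 to 2.53) and IRF5 by a fitted 1.99 (1.67 to 2.30), with only 5 of 18 U2932 arrays above background. IRF1 was lower, at -1.53 (-1.82 to -1.24), but at -0.16 under median scaling and -0.69 in the value table. Among 8 regulators of SPI1 or SPIB, 5 were higher and 2 lower, with POU2F2, which encodes Oct-2, at 1.78 and GFI1, a repressor, at -1.97. Only 6 of the 8 were also kept in the U2932 fit, with the same limit on the count. POU2AF1, which encodes the coactivator OCA-B, was at -1.42, but at 0.14 under median scaling. PAX5, called at 0.37, was above background on 0 of 18 U2932 arrays and had the opposite sign in the value table. CEBPA was above background on 0 of 18 U2932 arrays and at least 2.15-fold higher in TMD8 on this scale, while its log2 difference in the value table was 0.59. Of the lenalidomide axis, IKZF1, which encodes Ikaros, was higher in TMD8 by 0.80, while CRBN, which encodes cereblon, at -0.59 and IKZF3, which encodes Aiolos, at -0.48 turned positive under both other scalings.

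**Figure D5:**
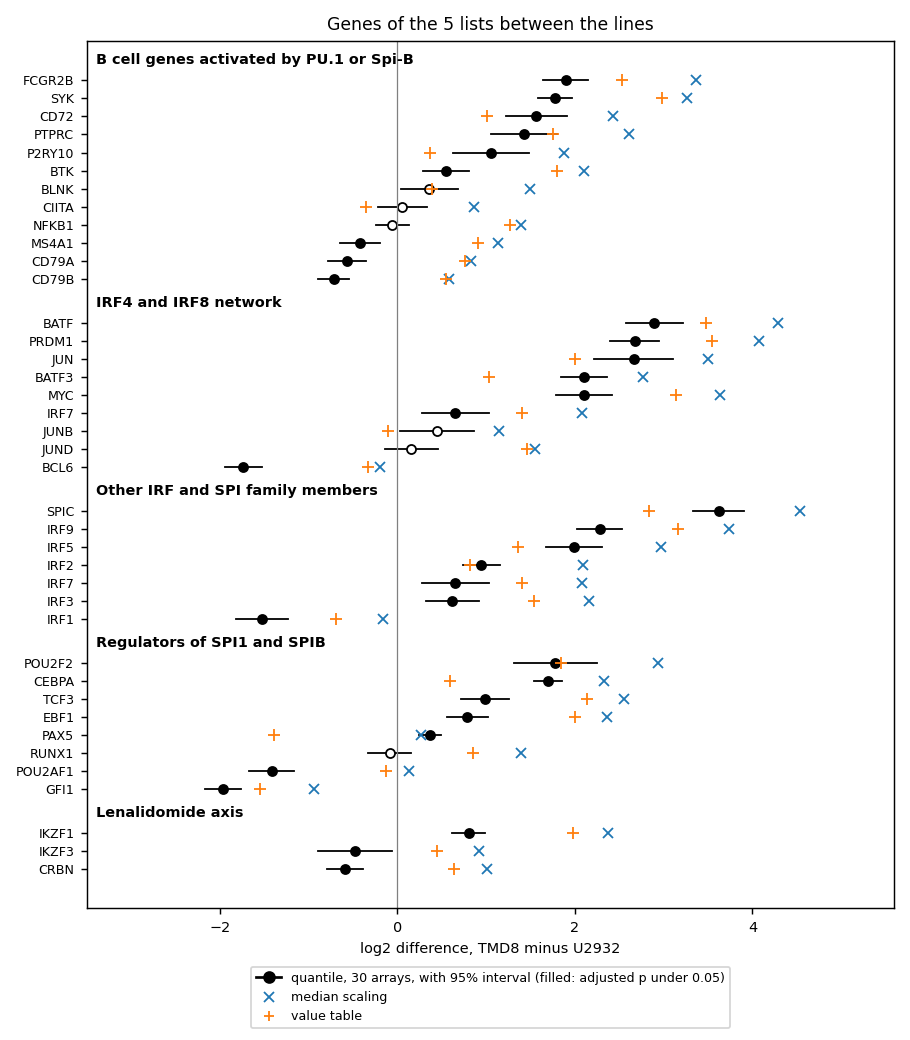
Difference between the lines, TMD8 minus U2932 over all groups (x axis, log2), of every measured gene of the 5 lists. Circles are limma estimates with 95% intervals in the fit of all 30 arrays, filled where the adjusted p was under 0.05, and crosses and plus signs are the estimates under median scaling and in the value table. Among the circles BATF sits at 2.90 and GFI1 at -1.97, while SPIC, JUN, BATF3, IRF5, CEBPA and PAX5 were each above background on 5 or fewer of 18 U2932 arrays.

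Within the lines the listed genes were seldom called. No listed gene was called for YK-S minus YK-R in TMD8 at either time, nor in 5 of the 6 treatment comparisons of U2932 with either table's names. For YK-R minus DMSO at 4 h in U2932, 0.780% of the 11276 genes tested rose and 0.780% fell with the signal table's names (0.763% and 1.54% with the value table's). IRF2 was higher by 0.77 (0.36 to 1.18; limma adjusted p = 0.0497) and IRF3 lower, at -1.49 (-2.23 to -0.76; limma adjusted p = 0.043), with the signal table's names, and neither was called with the value table's names, where JUND was higher by 0.56 instead. Over both enantiomers in TMD8, where 0.378% of the 12446 genes tested rose and 0.177% fell, 1 listed gene was called between 8 h and 4 h, IRF7, which encodes a master regulator of type I interferon genes. IRF7 read between 8.94 and 10.06 on the 6 arrays at 8 h, against 7.67 to 8.37 on the 6 at 4 h. The arrays were apart, and the difference was 1.39 (0.93 to 1.86; limma adjusted p = 0.015), with an adjusted p of 0.051 in the fit of all 30 arrays and 0.054 without YK-R at 4 h array 2. MYC, an IRF4 target, was at 0.95 (limma adjusted p = 0.051) and passed in the value table, with an adjusted p of 0.045. In U2932 over all 3 treatments, BTK, a kinase of B cell receptor signalling, rose between 4 h and 8 h by 0.60, and JUND (-0.99), MYC (-0.91) and GFI1 (-0.48) fell. Over all genes tested 3.59% rose and 2.04% fell. These 4 listed genes were called with the value table's names too, as were IRF9 (0.29), CD79B (-0.30) and CRBN (-0.37), where 7.64% of all genes rose and 8.03% fell.

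The genes whose levels followed each member most closely were ranked by the lower of their Pearson correlations over the 12 TMD8 and the 18 U2932 arrays, among 10587 genes with levels in both lines. These are descriptions, and arrays share brightness, treatment and time. For IRF8 the nearest was IFI35, an interferon-induced gene, with 0.95 over the TMD8 arrays and 0.84 over the U2932 arrays, followed by CDK5R1 at 0.73 and RAB11A at 0.73. For SPIB the nearest were BCL2L1, which encodes the survival factor BCL-XL, at 0.76, TTC14 at 0.70 and BCL3, an atypical inhibitor of NF-kappaB, at 0.67. For SPI1 they were BORCS8-MEF2B at 0.78, ZNF580 at 0.75 and GMIP at 0.75, and for IRF4 ATP2B1 at 0.67, VPS36 at 0.67 and MAPKAPK5 at 0.67. Over the 10 U2932 arrays that were not dim the correlations differed for several of them. They were 0.62 for IFI35, 0.78 for CDK5R1 and 0.89 for RAB11A with IRF8, and 0.72 for BCL2L1, 0.67 for TTC14 and 0.72 for BCL3 with SPIB. They were 0.90 for BORCS8-MEF2B, 0.85 for ZNF580 and 0.48 for GMIP with SPI1, and 0.26 for ATP2B1, 0.53 for VPS36 and 0.61 for MAPKAPK5 with IRF4.

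The members were also set against each other over arrays of a line, which does not depend on the names. Over the 18 U2932 arrays SPIB and IRF8 ran opposite, with Pearson's r of -0.73 and Spearman's rho of -0.68 (permutation p, adjusted over 12 relations, 0.0069 and 0.011). Over the 10 U2932 arrays that were not dim r was -0.70 and rho -0.85 (adjusted permutation p 0.066 and 0.011), and over all 18 r was -0.49 once the 2 arrays farthest from the SPIB median were left out. IRF4 and IRF8 ran opposite too, with r of -0.52 and rho of -0.57 over 18 arrays (adjusted permutation p 0.066 and 0.036) and -0.88 and -0.85 over the 10 (0.0069 and 0.011). SPIB and IRF4 ran together, with r of 0.78 and rho of 0.53 over 18 arrays (adjusted permutation p 0.0069 and 0.053) and 0.83 and 0.77 over the 10 (0.0098 and 0.035). Their r over all 18 was 0.53 once the 2 arrays farthest from the SPIB median were left out. That of IRF4 and IRF8 was -0.47 without the 2 arrays farthest from the IRF4 median. In TMD8 the arrays split by time, so the relations were taken within 4 h and within 8 h, over 6 arrays each. There SPIB and IRF8 had r of 0.50 at 8 h and -0.29 at 4 h, SPIB and IRF4 -0.49 at 8 h and 0.51 at 4 h, and IRF4 and IRF8 -0.06 at 8 h and -0.71 at 4 h. None of these 6 relations had an adjusted exact permutation p under 0.05. The arrays of U2932 share treatment and time as well, whose part in the relations was not tested. The permutations shuffled U2932 arrays across treatments and times. Their p-values therefore do not measure a relation within a condition and cannot be set beside those of TMD8, taken within each time.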

How the data were processed

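RNA of TMD8 and U2932 cells was hybridised to Illumina human bead arrays; per the labels' protocols it was extracted with RNeasy, checked for integrity and made into biotin-labelled cRNA with the Ambion TotalPrep kit, and per the submitters' processing notes GenomeStudio (version not given in the sources used here) was used. The deposited signal table holds bead intensities on a linear scale, not normalized by the authors, judging by the values. The deposited value table holds log2 values, which the authors had quantile normalized for each line on its own, as the columns of a line share 1 distribution (median 4.85 in TMD8, 6.42 in U2932). Its log base and scale were read from the values.

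Neqc could not be run, since the deposited signal table has no control probes or detection p-values. In its place each array's background was taken as the mode of its log2 signals, and a probe counted as above background at a one-sided p under 0.05 from the values below that mode. Signals were corrected with normexp (offset 16), quantile normalized, put on the log2 scale and tested per probe with limma 3.58.1 in R 4.3.3 (lmFit, eBayes). A probe was kept if above background on all arrays of at least 1 group. This left 23718 probes in TMD8 (12 arrays, 8 residual degrees of freedom), 20858 in U2932 (18 arrays, 12) and 25404 over all 30 arrays (20). Treatment and time comparisons were fitted within each line and line differences in the fit of all 30 arrays, over 22 planned contrasts and 6 added after the values were seen. Called means a Benjamini-Hochberg adjusted p under 0.05 over all kept probes, and all tests were two-sided. Intervals are 95% and their width is limited by the number of arrays.

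Of the probes, 30113 carried a single symbol, 8 carried several and 17110 carried no symbol; gene IDs tied 30074 of them to RefSeq. Named were all probes of the 4 genes and, from each list, the called genes (the 4 largest where more were called), with the brightest kept probe standing for a gene, and further list genes whose direction or detection limit needed stating. The members and the lists were chosen with earlier results of these data known. The fits were tested on simulated data. Alternatives were the value table, plain normexp with an offset of 50, median scaling, no detection filter and a stricter one, array weights, all arrays in 1 fit, leaving out the dim arrays, and leaving out each array. Labels give no slide, batch or pairing.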

Additional observations from a re-analysis of the deposited data

How the results depend on the processing

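Over 140 results for the 5 probes and 2233 values under alternatives, 1952 kept the direction and the side of the threshold, 15 lost a call, 68 gained one, 5 took the opposite sign with a call on at least 1 side, and 193 changed the sign of a difference that was not called. No paired analysis was possible because the labels give no replicate numbers, and array numbers here follow the order of deposit, which pairs nothing. Values with the opposite sign were IRF8 between lines under YK-R at 4 h with median scaling (0.41) and under YK-R at 8 h in the value table (0.040), IRF8 in U2932 between 8 h and 4 h over all 3 treatments with median scaling (1.45), SPI1 (ILMN_1696463) in U2932 for YK-S minus DMSO at 4 h with array weights (-0.42), and SPIB in the time difference under YK-R, TMD8 minus U2932, with median scaling (-2.09). The cause was not tested.

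Of the 5 probes, array weights called 4 (against 2) between lines under YK-S at 4 h; 4 for YK-S minus DMSO, 3 for YK-R minus DMSO and 1 for YK-S minus YK-R at 4 h in U2932; 3, 2 and 2 between times under YK-S, YK-R and DMSO, and 2 over all 3; and 1 each for the 4 interactions of enantiomer and time in U2932, enantiomer and line at 4 h, and time and line under either form, all against 0. The array weights stopped before convergence in 2 fits. Median scaling called 4 between lines under YK-S at 4 h, 4 over all 3 treatments between times in U2932, 5 under YK-R and 2 under DMSO, and 2 for time and line under YK-R. It also moved the median over all probes, by 0.54 between lines under YK-S at 4 h and by -0.85 for time and line under YK-R. Between times in U2932 it moved that median by 0.76 over all 3 treatments, 1.08 under YK-R and 0.94 under DMSO. The value table called 4 between lines under YK-S at 4 h, where 21794 of 25404 probes were called, and 1 for time and line under YK-R, where 484 were. All arrays in 1 fit called 1 for YK-R between times in TMD8, where 15 of 25404 probes were called, and 1 for YK-R minus DMSO at 4 h in U2932, where 4134 were. Leaving out 1 array gave 0 to 2 calls for time in TMD8 over both forms, 0 to 1 within YK-R, and, only without DMSO at 4 h array 3, 0 to 1 for YK-R minus DMSO and YK-S minus DMSO at 4 h in U2932. Over all probes, YK-R minus DMSO at 4 h ranged from 0 to 8528 calls under the alternatives and from 0 to 6936 with 1 array left out, against 425. YK-S minus DMSO at 4 h reached 12042 calls under the alternatives, against 0. Between times in U2932 the alternatives reached 6231 calls under YK-S, 12443 under YK-R and 9316 under DMSO, each against 0, and 13447 over all 3 treatments, against 1376. The member counts under these settings are to be read beside such shifts of all probes. YK-S minus YK-R at 8 h in TMD8 ranged from 0 to 20 and from 0 to 446, against 11. Without the dim arrays the comparisons with DMSO or YK-R at 4 h in U2932 could not be fitted. Signal near background limits both SPI1 probes in U2932.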
